A study of Homo sapiens with 19 samples.

Results

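The IGF axis genes are the ligands, receptors and binding proteins of the insulin-like growth factors (IGFs), together with the imprinted RNA gene H19. Members were the rows of 2 tables of normalized counts whose symbol is IGF1, IGF2, H19, IGF1R, IGF2R, IGFBP1, IGFBP2, IGFBP3, IGFBP4 or IGFALS. Of these 10 symbols, 9 had a row among the 34825 symbols of each table, and H19 was not analysed here. All 19 libraries are mRNA-seq of HepG2, a human liver cancer cell line. In the first experiment the cells received 50 nM of the non-targeting control siRNA NTG, of siINO80#1 or of siINO80#2 and were harvested after 72 h, with 3 libraries per group, lettered A to C. In the second experiment the cells were kept in 1 uM EPZ-6438, an inhibitor of the histone methyltransferase EZH2, or in DMSO from 3 days before transfection. They then received 50 nM of NTG or of siMCRS1, again for 72 h. This gave 2 libraries of DMSO NTG, 3 of DMSO siMCRS1, 3 of EPZ-6438 NTG and 2 of EPZ-6438 siMCRS1. INO80 is the ATPase of the INO80 chromatin remodeling complex and MCRS1 is one of its subunits. All cells therefore carried an siRNA, MCRS1 was targeted by a single siRNA, and each table was scaled on its own, so levels were compared only within a table.

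IGF1 and IGF2 are secreted growth factors that signal through the receptor tyrosine kinase IGF1R. IGF2R, the cation-independent mannose 6-phosphate receptor, takes IGF2 into the cell for degradation. The IGFBPs bind the IGFs in the extracellular space and the blood and control how much ligand reaches a receptor, and IGFALS, the acid-labile subunit, joins IGFBP3 and a ligand in the large circulating complex. Adult liver is the main source of circulating IGF1 and IGFALS. IGF2 is made in fetal liver, stays expressed in adult human liver and is overexpressed in some liver tumors.

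To read the levels of different members against each other, normalized counts were divided by the length of the longest protein-coding transcript of each gene. Per kb, IGFBP1 and IGF2 were the highest members in control cells and IGF1 was the lowest. In the 3 NTG libraries IGFBP1 had a mean of 5284 normalized counts per kb (range 1225 to 7618) and IGF2 had 3349 (range 2055 to 4720), so the order of these 2 was within their spread. IGF2R followed at 1063 per kb, IGFBP4 at 452 and IGF1R at 210, and no neighbours in this stretch overlapped between libraries. Next came IGFBP2 (24.2 per kb), IGFBP3 (19.3) and IGFALS (4.68), where IGFBP3 overlapped both its neighbours, and IGF1 had 1.78 per kb. The 2 DMSO NTG libraries gave IGF2 2778 and IGFBP1 2772 normalized counts per kb, again overlapping. There IGF2R, IGFBP4, IGF1R, IGFBP2, IGFBP3, IGFALS and IGF1 followed in the same order. IGF1 was represented by only 6 to 19 reads per library.

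**Figure D1:**
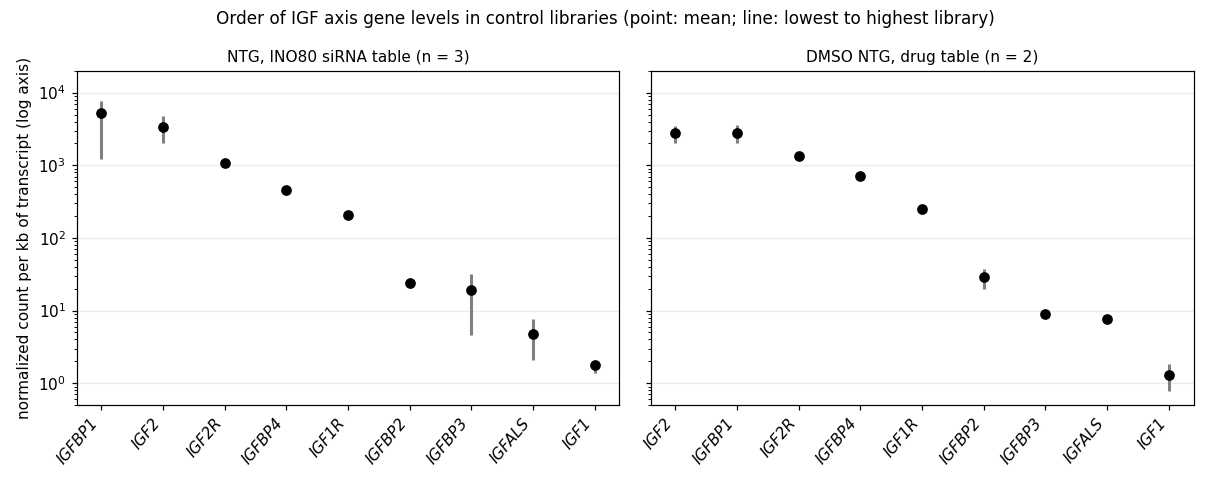
Normalized counts per kb of transcript (log axis) of 9 IGF axis genes in the 3 NTG libraries of the INO80 siRNA table and the 2 DMSO NTG libraries of the drug table. Points are means and lines run from the lowest to the highest library; IGFBP1 and IGF2 lie highest in both panels, with overlapping lines, and IGF1 lies lowest.

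A few checks on the libraries bear on all values below. INO80 had 1175 to 1338 normalized counts in NTG, 576 to 639 in siINO80#1 and 440 to 483 in siINO80#2. MCRS1 had 1201 to 1577 in the 5 NTG libraries of the drug table and 83.7 to 140 in the 5 siMCRS1 libraries. The labels therefore matched the targeted genes in all 19 libraries. Libraries held 17093574 to 25369547 reads in the first experiment and 26038505 to 47397233 in the second, and 3 reads, taken as the floor, were worth 2.30 to 3.58 and 2.13 to 4.30 normalized counts (counting error only). The summed level of 7 hepatocyte markers (ALB, AFP, APOA1, APOB, TTR, FGB and SERPINA1) was 559230 to 969248 normalized counts in the first experiment. The summed level of 8 markers of stromal, endothelial and immune cells was 1446 to 2927. In the drug table the latter sum was 2969 to 4904 in EPZ-6438 NTG and 1834 to 2733 in the other groups, and its part in the results was not tested. ACTA2 alone, 1 of these markers, had 1666 to 2713 in EPZ-6438 NTG and 181.9 to 1156 in the other groups. None of these 8 markers was at 0 in any library. Of the 7 that were tested, 2 passed with siINO80#1 (1 higher, 1 lower) and 4 with siINO80#2 (2 higher, 2 lower). With siMCRS1, 2 passed under DMSO (1 higher, 1 lower) and 3 under EPZ-6438 (1 higher, 2 lower). Of the 7 hepatocyte markers 0, 3, 0 and 1 passed in the same order, the 3 being lower and the 1 higher. Over all tested genes, 41.6%, 55%, 47.7% and 53.7% passed in these comparisons. All libraries are of the HepG2 cell line. In bulk RNA of this kind, fewer cells expressing a gene and less of its RNA per cell cannot be told apart.

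Values were tested as log2(normalized count + 1) with limma, in 1 fit per table. Genes entered the fit if they averaged 10 normalized counts or more, and a member is called changed at a Benjamini-Hochberg adjusted p under 0.05. Fold changes are on this scale, which makes them too small for genes with few reads. Of the 9 members in the tables, 8 passed this filter in each: IGFALS was too low in the INO80 siRNA table and IGF1 in the drug table. Replicates are separate libraries by their labels, nothing says that they came from separate cultures, and p-values measure the spread between these libraries.

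Depletion of INO80 or of MCRS1 was accompanied by higher mRNA of IGF2, its scavenger receptor IGF2R and the binding protein IGFBP4. The IGF2R calls with siINO80#1 and with siMCRS1 in both treatments were lost when libraries were rescaled to the same total. The IGF2 call with siMCRS1 in DMSO was lost with quantile normalization. With siINO80#1, 3 of 8 tested members passed the test, all higher, where 41.6% of all 14034 tested genes did (20.7% higher, 20.8% lower). With siINO80#2, 4 of 8 passed, 3 higher and IGFBP3 lower, against 55% of all genes (26.6% higher, 28.4% lower). These shares are near the background or below it, and both comparisons use the same NTG libraries. With siMCRS1, 6 of 8 passed in DMSO (47.7% of all 14312 tested genes, 23.1% higher and 24.6% lower) and 6 of 8 in EPZ-6438 (53.7%, 26.8% higher and 26.9% lower), in both cases with IGF2, IGF1R, IGF2R, IGFBP1 and IGFBP4 higher and IGFALS lower. IGFALS is among the tested members only because its NTG libraries lifted its mean over the filter on low values. The 2 siMCRS1 comparisons share no library. The members were chosen with earlier results of these data known. The median log2 fold change of the 8 tested members was 0.09, 0.17, 0.56 and 0.69 in these 4 comparisons, beside medians of 0.00, 0.00, 0.00 and 0.01 over all tested genes. Libraries of the groups did not overlap for 4, 3, 6 and 7 members, beside 57.2%, 61.3%, 66.8% and 69.1% of all tested genes. INO80 mRNA was itself lower with siMCRS1, with log2 fold changes of -0.27 in DMSO (adjusted p = 0.039, limma) and -0.35 in EPZ-6438 (adjusted p = 0.0097, limma). The part of this in the siMCRS1 results was not tested.

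**Figure D2:**
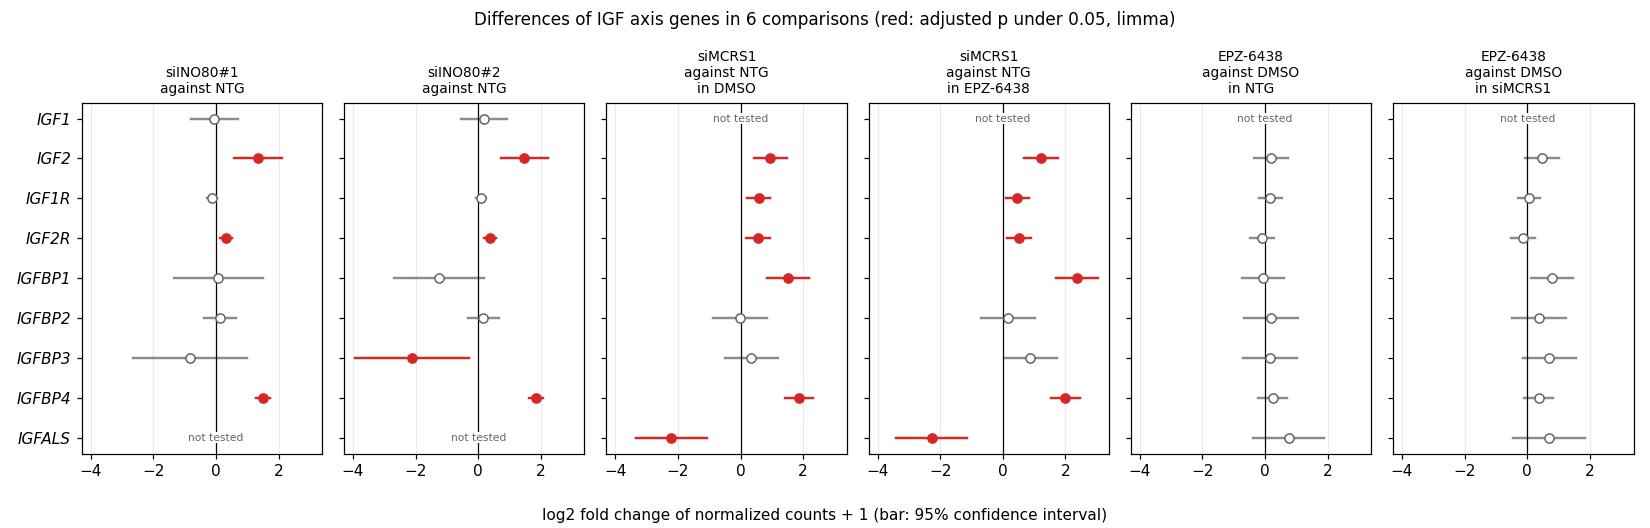
Log2 fold changes of 9 IGF axis genes in 6 comparisons, with 95% confidence intervals as bars and calls at an adjusted p under 0.05 (limma) in red. IGF2, IGF2R and IGFBP4 are red and right of 0 in the 4 knockdown panels, and no gene is red in the 2 EPZ-6438 panels.

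IGF2 had the highest mean of the members over all libraries of each table, before any correction for length. In the NTG groups of the drug table, however, IGF2R had the higher mean. It had 18773 against 15499 for IGF2 in DMSO NTG and 17545 against 17307 in EPZ-6438 NTG. The NTG libraries A, B and C had 26335, 11468 and 18253 normalized counts of IGF2. The siINO80#1 libraries had 48114, 32999 and 56114, and the siINO80#2 libraries had 30802, 53943 and 69972. Every library of both siINO80 groups lay above all 3 NTG libraries, with siINO80#2 library A closest to them. The log2 fold change was 1.34 for siINO80#1 (SE 0.34, adjusted p = 0.0094, limma), a 2.53-fold higher level. For siINO80#2 it was 1.47 (SE 0.34, adjusted p = 0.0040, limma), or 2.76-fold. As a share of all normalized counts, IGF2 was 0.0604% to 0.138% in NTG, 0.169% to 0.276% in siINO80#1 and 0.154% to 0.317% in siINO80#2.

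In DMSO, IGF2 had 19635 and 11363 normalized counts in the NTG libraries and 35674, 27380 and 24380 in the siMCRS1 libraries. In EPZ-6438 it had 13358, 19676 and 18887 with NTG and 41276 and 38028 with siMCRS1. The siMCRS1 libraries were all above the NTG libraries of the same treatment. IGF2 rose 1.93-fold in DMSO (log2 fold change 0.95, SE 0.24, adjusted p = 0.0080, limma) and 2.32-fold in EPZ-6438 (1.22, SE 0.24, adjusted p = 0.0016, limma). All alternatives kept the EPZ-6438 call, with quantile normalization lowest at 0.79 (adjusted p = 0.021, limma). In DMSO the call was lost without DMSO NTG library 3, which had the lower IGF2 level (0.55, adjusted p = 0.10, limma), and held without DMSO NTG library 1 (1.34, adjusted p = 0.0040, limma). Quantile normalization, an alternative scaling, gave 0.60 (adjusted p = 0.070, limma) for this comparison.

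IGF2 lies on chromosome 11 from 2129117 to 2149566 (RefSeq, GRCh38.p14), 127850 bases from H19, and RefSeq also lists the read-through gene INS-IGF2 there. INS and INS-IGF2 were at 0 normalized counts in all 19 libraries, so among these 3 symbols reads were assigned to IGF2 alone. Rows for IGF2-AS, MIR675, AIRN and IGF1R-AS1, transcripts that overlap or neighbour members, were not analysed here. Whether the quantification used the strand is not stated, so reads of antisense transcripts could not be told apart from those of the members.

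IGF1, the ligand of postnatal growth, was near the detection limit. It had 10.0, 14.4 and 14.4 normalized counts in NTG, 9.54, 15.9 and 12.2 in siINO80#1, and 19.1, 9.96 and 16.1 in siINO80#2, and the groups overlapped. The log2 difference was -0.05 for siINO80#1 (95% confidence interval -0.79 to 0.69, adjusted p = 0.92, limma) and 0.17 for siINO80#2 (-0.57 to 0.92, adjusted p = 0.69, limma). In the drug table IGF1 ranged from 5.68 to 20.0 normalized counts over the 10 libraries and was not tested.

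The receptors had smaller fold changes than IGF2. IGF2R had 14203, 16115 and 14543 normalized counts in NTG libraries A, B and C, 18659, 18302 and 19111 in siINO80#1, and 20995, 18696 and 18415 in siINO80#2. All siINO80 libraries lay above all NTG libraries. The rise was 1.25-fold for siINO80#1 (log2 fold change 0.32, SE 0.08, adjusted p = 0.0099, limma) and 1.30-fold for siINO80#2 (0.37, SE 0.08, adjusted p = 0.0031, limma). Rescaling every library to the same total took the siINO80#1 value to 0.24 (adjusted p = 0.073, limma).

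In the drug table IGF2R had 16362 and 21185 normalized counts in DMSO NTG and 23080, 29803 and 29547 in DMSO siMCRS1. It had 14233, 18850 and 19551 in EPZ-6438 NTG and 23196 and 26305 in EPZ-6438 siMCRS1. Groups did not overlap within a treatment, and the rise was 1.47-fold in DMSO (log2 fold change 0.55, SE 0.17, adjusted p = 0.022, limma) and 1.42-fold in EPZ-6438 (0.51, SE 0.17, adjusted p = 0.029, limma). Both calls depended on the scaling and on single libraries. Rescaling to the same total gave 0.32 and 0.27 (adjusted p = 0.15 and 0.21, limma), and quantile normalization gave 0.20 and 0.06 (adjusted p = 0.41 and 0.80, limma). The DMSO call was lost without DMSO NTG library 1 (0.37, adjusted p = 0.21, limma), DMSO siMCRS1 library 2 (0.49, adjusted p = 0.073, limma) or DMSO siMCRS1 library 3 (0.49, adjusted p = 0.063, limma). The EPZ-6438 call was lost without EPZ-6438 NTG library 1 (0.36, adjusted p = 0.083, limma), EPZ-6438 siMCRS1 library A (0.60, adjusted p = 0.052, limma) or library B (0.42, adjusted p = 0.18, limma).

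IGF1R, the signalling receptor, had 2497, 2634 and 2559 normalized counts in NTG, 2423, 2254 and 2411 in siINO80#1, and 2642, 2589 and 2968 in siINO80#2. The siINO80#1 libraries lay just below NTG and the siINO80#2 libraries overlapped it. Neither difference passed the test: the log2 difference was -0.12 for siINO80#1 (95% confidence interval -0.27 to 0.04, adjusted p = 0.21, limma) and 0.09 for siINO80#2 (-0.07 to 0.25, adjusted p = 0.30, limma). After rescaling to the same total the siINO80#1 value was -0.20 and passed (adjusted p = 0.027, limma).

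With siMCRS1, IGF1R was higher. It had 2832 and 3383 normalized counts in DMSO NTG, 4031, 4801 and 5059 in DMSO siMCRS1, 2802, 3945 and 3792 in EPZ-6438 NTG, and 4396 and 5222 in EPZ-6438 siMCRS1. No siMCRS1 library overlapped the NTG libraries of its treatment. IGF1R rose 1.49-fold in DMSO (log2 fold change 0.57, SE 0.16, adjusted p = 0.014, limma) and 1.38-fold in EPZ-6438 (0.46, SE 0.16, adjusted p = 0.033, limma). Rescaling to the same total gave 0.34 and 0.23 (adjusted p = 0.10 and 0.26, limma), and quantile normalization gave 0.37 and 0.21 (adjusted p = 0.087 and 0.32, limma). The calls were lost without DMSO NTG library 1 (0.45, adjusted p = 0.13, limma), EPZ-6438 NTG library 1 (0.31, adjusted p = 0.090, limma) or EPZ-6438 siMCRS1 library B (0.34, adjusted p = 0.23, limma). With that rescaling the median of all tested genes moved from 0.00 to -0.23 for siMCRS1 in DMSO and from 0.01 to -0.23 in EPZ-6438. The share of calls that were higher moved from 48.4% to 27.0% and from 49.9% to 30.1%.

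IGFBP4, which binds both IGFs and is cut by the protease PAPPA to release them, had the smallest spread relative to its change. NTG libraries A, B and C had 946, 1117 and 925 normalized counts, siINO80#1 libraries had 2505, 3184 and 2824, and siINO80#2 libraries had 3533, 3779 and 3380. The 3 groups were fully separated, in the order NTG, siINO80#1, siINO80#2. IGFBP4 rose 2.84-fold with siINO80#1 (log2 fold change 1.51, SE 0.10, adjusted p = 2.6e-06, limma) and 3.58-fold with siINO80#2 (1.84, SE 0.10, adjusted p = 3.7e-07, limma). With limma it was the only 1 of 8 tested members that passed between the 2 INO80 siRNAs, where 22.1% of all tested genes did (9.48% higher, 12.6% lower with siINO80#2). The log2 difference of IGF1R was 0.21 (adjusted p = 0.058, limma), and it passed with DESeq2 (0.22, adjusted p = 0.034), quantile normalization (0.24, adjusted p = 0.031, limma), the replicate block (0.21, adjusted p = 0.049, limma) and without siINO80#2 library B (0.25, adjusted p = 0.043, limma). Libraries of the 2 siRNAs did not overlap for 2 members, IGFBP4 and IGF1R, beside 38.8% of all genes. The IGFBP4 level was higher with siINO80#2, by 0.33 on the log2 scale (SE 0.10, adjusted p = 0.039, limma). That call was lost in 9 of 21 alternatives, with log2 values from 0.25 to 0.42 and adjusted p from 0.0090 to 0.14. Leaving out NTG library A (0.33, adjusted p = 0.052, limma), siINO80#1 library A (0.25, adjusted p = 0.14, limma) or C (0.33, adjusted p = 0.095, limma), or siINO80#2 library A (0.34, adjusted p = 0.083, limma) or B (0.29, adjusted p = 0.089, limma) was enough.

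In the drug table IGFBP4 had 1551 and 1624 normalized counts in DMSO NTG and 5109, 6914 and 5507 in DMSO siMCRS1. It had 1658, 2383 and 1680 in EPZ-6438 NTG and 5988 and 9309 in EPZ-6438 siMCRS1. The lowest siMCRS1 library of either treatment was above the highest of all 5 NTG libraries. The rise was 3.65-fold in DMSO (log2 fold change 1.87, SE 0.21, adjusted p = 7.9e-05, limma) and 3.97-fold in EPZ-6438 (1.99, SE 0.21, adjusted p = 3.3e-05, limma). All alternatives kept the 4 knockdown calls of IGFBP4, with log2 fold changes of 1.42 to 1.59, 1.73 to 1.93, 1.63 to 1.96 and 1.67 to 2.31.

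The stretches before the start of IGFBP4 and of IGF2R are shown because these genes, with IGF2, were higher in the 4 knockdown comparisons. They come from RefSeq (GRCh38.p14), whose promoter table matched 8 of the 10 members, IGF2 and IGFBP1 not among them. Each line gives the 250 bases up to the first base of the gene, 5′ to 3′ on the strand of the gene, and capitals mark the TATA motif TATAAA in the first line and the E-box CACGTG in the second, both searched on both strands.
IGFBP4 (chr17:40443200-40443449, plus strand): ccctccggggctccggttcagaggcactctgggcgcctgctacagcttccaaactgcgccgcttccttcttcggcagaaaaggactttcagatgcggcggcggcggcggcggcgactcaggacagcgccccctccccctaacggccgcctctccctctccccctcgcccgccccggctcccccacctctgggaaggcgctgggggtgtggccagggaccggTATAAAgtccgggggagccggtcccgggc
IGF2R (chr6:159968832-159969081, plus strand): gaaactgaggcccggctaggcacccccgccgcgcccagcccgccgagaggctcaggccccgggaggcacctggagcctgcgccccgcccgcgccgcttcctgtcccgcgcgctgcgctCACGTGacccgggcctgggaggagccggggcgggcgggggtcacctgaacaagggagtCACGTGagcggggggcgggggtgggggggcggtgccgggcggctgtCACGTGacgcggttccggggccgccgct
The IGFBP4 window holds 1 TATAAA, close to the start, and the IGF2R window holds 3 copies of CACGTG and no TATAAA. Over 35116 RefSeq windows of the same length, 10.7% held TATAAA and 6.34% held CACGTG. A match says only that these letters are present. Of the bases, 71.6% were G or C in the IGFBP4 window and 79.2% in the IGF2R window. Of 4 motifs searched on both strands, the GC box GGGCGG was in both windows, 1 copy in IGFBP4 and 6 in IGF2R (42.6% of all windows held it), and the YY1 core CCATNTT was in neither (11.6%).

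**Figure D3:**
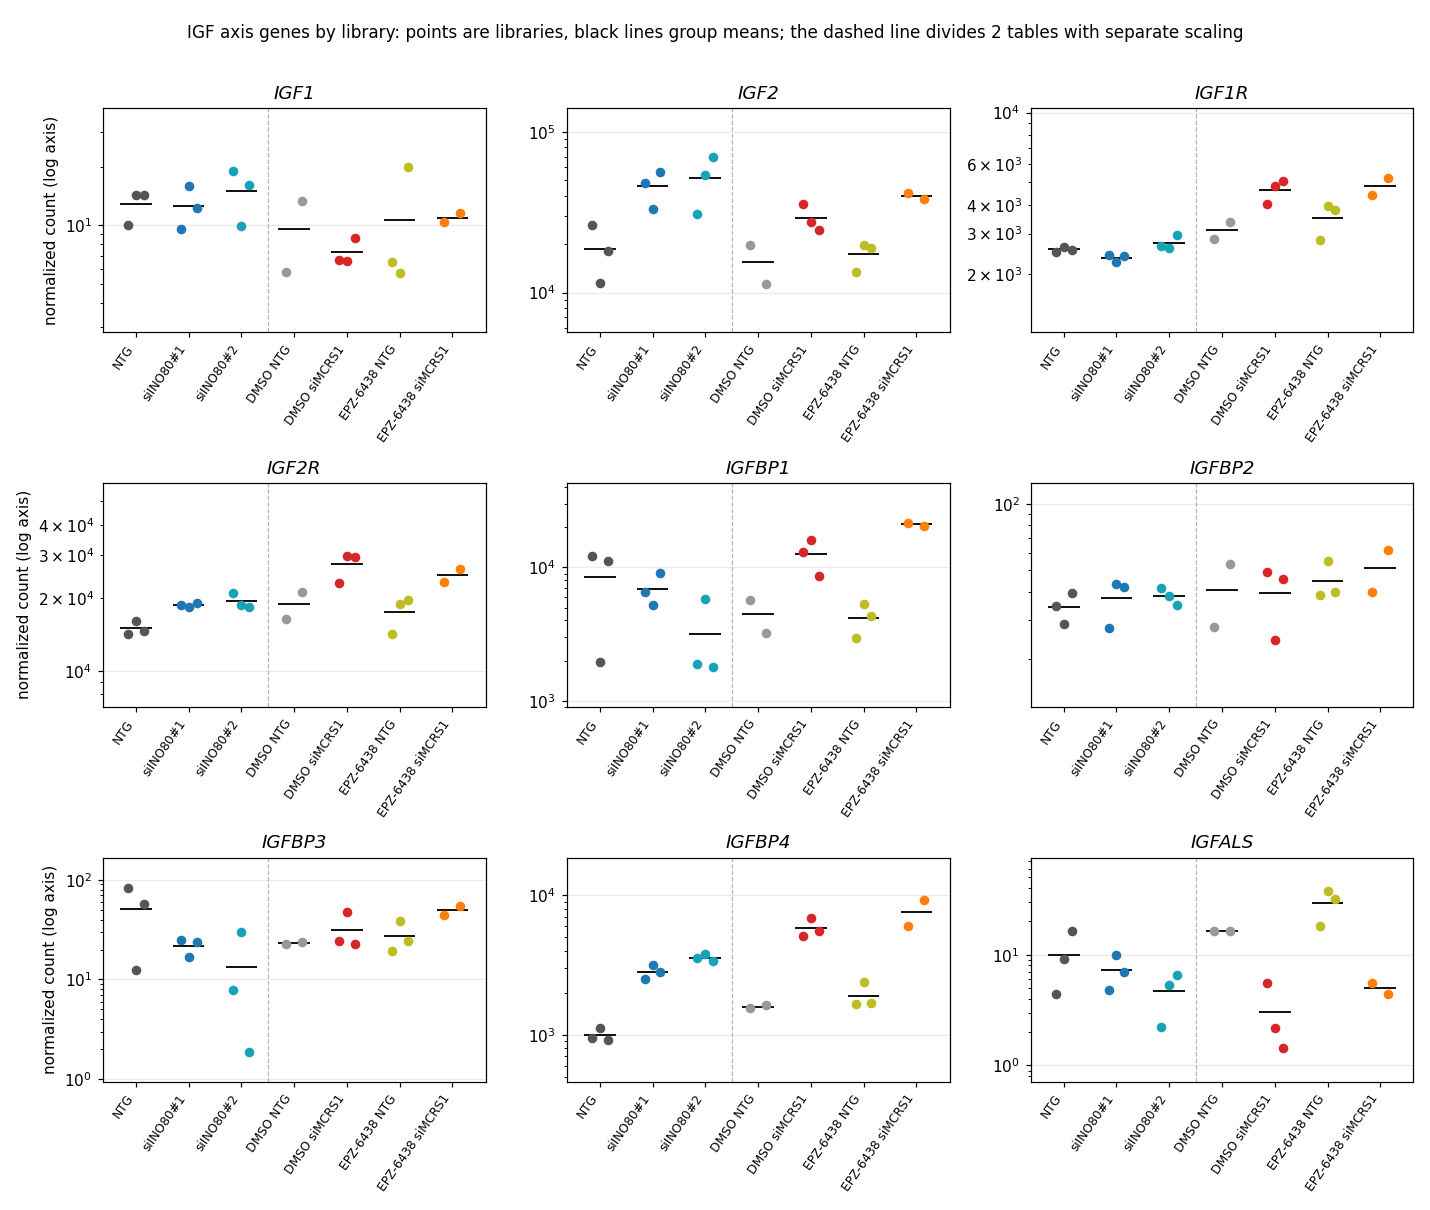
Normalized counts (log axis) of 9 IGF axis genes in each of 19 libraries, with points for libraries and black lines for group means; the dashed line divides 2 tables with separate scaling. For IGFBP4 the knockdown groups lie above the NTG groups without overlap, while for IGFBP1 and IGFBP3 the 3 NTG libraries of the first table are spread over a range of 6.22 and 6.79 times.

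IGFBP1, the binding protein that hepatocytes secrete and that insulin represses, rose with siMCRS1 and passed no test with the INO80 siRNAs. In the drug table it had 5677 and 3197 normalized counts in DMSO NTG and 13055, 15949 and 8697 in DMSO siMCRS1. It had 2946, 5322 and 4331 in EPZ-6438 NTG and 21553 and 20633 in EPZ-6438 siMCRS1. All siMCRS1 libraries were above all NTG libraries. IGFBP1 rose 2.86-fold in DMSO (log2 fold change 1.52, SE 0.30, adjusted p = 0.0021, limma) and 5.17-fold in EPZ-6438 (2.37, SE 0.30, adjusted p = 0.00011, limma), and no alternative ended either call. The difference between these effects was 0.85 on the log2 scale (95% confidence interval -0.09 to 1.80, unadjusted p = 0.073, adjusted p = 1.00, limma) and did not pass the test.

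With the INO80 siRNAs no difference of IGFBP1 passed the test. NTG libraries A, B and C had 12196, 1962 and 11219 normalized counts, siINO80#1 libraries had 6549, 5235 and 9048, and siINO80#2 libraries had 1895, 5819 and 1800. NTG library B lay far below the other NTG libraries, and siINO80#2 library B lay above the others of its group. The log2 difference was 0.07 for siINO80#1 (95% confidence interval -1.36 to 1.498, adjusted p = 0.94, limma) and -1.25 for siINO80#2 (-2.68 to 0.18, adjusted p = 0.12, limma). The siINO80#2 value was -2.11 without NTG library B (adjusted p = 0.0031, limma) and -1.804 without siINO80#2 library B (adjusted p = 0.034, limma). With the B libraries of every group left out together, an alternative chosen after seeing the data, IGFBP1 was lower with siINO80#1 (-0.60, adjusted p = 0.022, limma) and with siINO80#2 (-2.66, adjusted p = 4.2e-05, limma).

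IGFBP3, the main carrier of IGFs in blood and a neighbour of IGFBP1 on chromosome 7, with 18584 bases between the genes, showed the same arrangement at a low level. It had 83.6, 12.3 and 56.6 normalized counts in NTG, 25.0, 16.9 and 23.6 in siINO80#1, and 7.85, 29.9 and 1.89 in siINO80#2, where the last value stands for 2 reads and is under the floor. Again NTG library B was the lowest of its group and siINO80#2 library B the highest, so the groups overlapped. The log2 difference was -0.84 for siINO80#1 (95% confidence interval -2.65 to 0.98, adjusted p = 0.45, limma). For siINO80#2 the log2 fold change was -2.12 and just passed the test (SE 0.82, adjusted p = 0.048, limma). Leaving out any of 7 of the 9 libraries ended this call, among them NTG library A (-1.58, adjusted p = 0.17, limma), NTG library C (-1.86, adjusted p = 0.14, limma), siINO80#2 library A (-2.09, adjusted p = 0.096, limma) and siINO80#2 library C (-1.28, adjusted p = 0.17, limma). Without siINO80#1 library A, B or C the adjusted p was 0.062 in each case. The edgeR test on recovered reads gave -1.84 (adjusted p = 0.057).

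A small set of other genes had the same arrangement of the B libraries as IGFBP1 and IGFBP3. The rule for this set was taken from the IGFBP1 values after they were seen, so IGFBP1 was in it by construction. NTG library B was lower than both other NTG libraries by at least 1 log2 unit for 97 of 14034 tested genes, beside 88 for library A and 60 for library C. By as much, siINO80#2 library B was higher than both others of its group for 99. Such counts were not taken for siINO80#2 libraries A and C. Both held for 21 genes, which include IGFBP1, IGFBP3, CA9, EGLN3, LOX, PCK1, ARG1 and TNS1. CA9, EGLN3 and LOX, genes known to be induced by low oxygen, were chosen here after their values were seen. CA9, a carbonic anhydrase, had 280, 0 and 195 normalized counts in NTG, 100, 3.97 and 104 in siINO80#1, and 5.61, 122 and 6.61 in siINO80#2. LOX, a lysyl oxidase, had 1278, 227 and 952 in NTG, 347, 223 and 415 in siINO80#1, and 141, 445 and 157 in siINO80#2. The INO80 level of the B libraries matched their labels, with 1338 in NTG, 639 in siINO80#1 and 456 in siINO80#2. LOX was also lower with siINO80#2 by limma (log2 fold change -1.60, adjusted p = 0.042), while the CA9 difference did not pass the test (-1.05, adjusted p = 0.69). Unlike IGFBP1, PCK1 was lower with siINO80#1 (-3.91, adjusted p = 0.00021, limma) and siINO80#2 (-3.70, adjusted p = 0.00016, limma). VEGFA, also known to respond to low oxygen, was lower with both (-0.41 and -0.67, adjusted p = 0.047 and 0.0029, limma). ADM, another such gene, passed with neither (0.16 and -0.28), nor did EGLN3 (-0.94 and -1.32). The part of these genes in the IGFBP1 and IGFBP3 results was not tested.

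**Figure D4:**
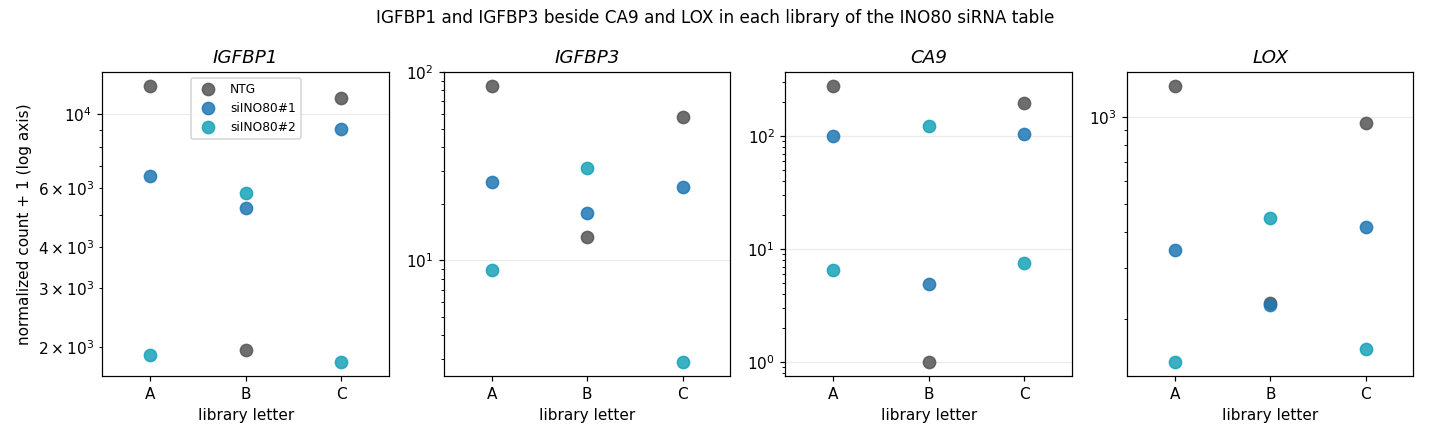
Normalized count + 1 (log axis) of IGFBP1, IGFBP3, CA9 and LOX in libraries A, B and C of NTG, siINO80#1 and siINO80#2. For all 4 genes, NTG is the highest group and siINO80#2 the lowest in libraries A and C, while siINO80#2 is the highest in library B.

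The same genes in the drug table give the comparison for the rise of IGFBP1 with siMCRS1. There CA9 had 64.1 and 0.954 normalized counts in DMSO NTG, 49.0, 7.71 and 4.30 in DMSO siMCRS1, 2.15, 26.3 and 0 in EPZ-6438 NTG, and 2.40 and 9.76 in EPZ-6438 siMCRS1. CA9 overlapped between siMCRS1 and NTG in both treatments, and its log2 difference was 0.23 in DMSO (adjusted p = 0.92, limma) and 0.45 in EPZ-6438 (adjusted p = 0.84, limma). The log2 difference of LOX was 0.59 in DMSO (adjusted p = 0.26, limma) and 0.91 in EPZ-6438 (adjusted p = 0.083, limma). Other genes known to respond to low oxygen did move with siMCRS1. EGLN3, a prolyl hydroxylase, was higher in DMSO (2.08, adjusted p = 0.017, limma) and missed the threshold in EPZ-6438 (1.34, adjusted p = 0.089, limma). ADM, the gene of adrenomedullin, was higher in both (1.42 and 1.31, adjusted p = 0.00022 and 0.00025, limma), as was VEGFA (0.36 and 0.33, adjusted p = 0.033 and 0.046, limma). PCK1, a gluconeogenic enzyme that insulin represses as it does IGFBP1, was lower in both (-3.83 and -4.25, adjusted p = 9.8e-05 and 3.4e-05, limma). Their part in the rise of IGFBP1 was not tested.

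IGFBP3 had 23.0 and 23.9 normalized counts in DMSO NTG, 24.5, 47.4 and 22.9 in DMSO siMCRS1, 19.4, 38.4 and 24.2 in EPZ-6438 NTG, and 43.999 and 55.03 in EPZ-6438 siMCRS1. Groups overlapped in DMSO, and in EPZ-6438 the siMCRS1 libraries were above the NTG libraries. The log2 difference was 0.34 in DMSO (95% confidence interval -0.51 to 1.19, adjusted p = 0.50, limma) and 0.88 in EPZ-6438 (0.03 to 1.73, adjusted p = 0.075, limma). The latter passed without EPZ-6438 NTG library 2 (1.15, adjusted p = 0.034, limma), without DMSO siMCRS1 library 2 (0.88, adjusted p = 0.049, limma) and with quantile normalization (1.28, adjusted p = 0.022, limma).

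IGFBP2, which prefers IGF2 as a ligand, was low in every group. It ranged from 27.4 to 43.6 normalized counts over the 9 libraries of the first experiment and from 24.2 to 62.1 over the 10 of the second. The log2 differences were 0.12 for siINO80#1 (95% confidence interval -0.39 to 0.62, adjusted p = 0.72, limma), 0.16 for siINO80#2 (-0.34 to 0.67, adjusted p = 0.57, limma), -0.02 for siMCRS1 in DMSO (-0.89 to 0.84, adjusted p = 0.97, limma) and 0.17 in EPZ-6438 (-0.69 to 1.04, adjusted p = 0.74, limma). These intervals leave room for changes of IGFBP2 as large as those of the receptors.

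IGFALS fell with siMCRS1. It had 16.3 and 16.2 normalized counts in DMSO NTG and 5.56, 2.20 and 1.43 in DMSO siMCRS1. The last 3 values stand for 5, 2 and 1 reads, and 2.20 and 1.43 are under the floor. In EPZ-6438 it had 18.3, 37.7 and 31.5 with NTG and 5.60 and 4.44 with siMCRS1, or 7 and 5 reads. No siMCRS1 library reached an NTG library. The log2 fold change was -2.22 in DMSO (SE 0.51, adjusted p = 0.0049, limma) and -2.27 in EPZ-6438 (SE 0.51, adjusted p = 0.0035, limma), on a scale that understates the change at such counts. With a pseudocount of 5 in place of 1 the values were -1.43 and -1.73 (adjusted p = 0.0057 and 0.0016, limma). IGFALS passed the filter on low values through its NTG libraries, and with no filter the adjusted p was 0.0095 in DMSO and 0.0069 in EPZ-6438 (limma). The calls held in the 18 alternatives for DMSO and the 19 for EPZ-6438 in which it was tested. It was not tested with a filter at a mean of 50 or, in DMSO, with only the groups compared. In the INO80 siRNA table IGFALS was below the filter, with 4.46, 9.24 and 16.3 normalized counts in NTG, 4.77, 9.91 and 6.996 in siINO80#1, and 2.24, 5.36 and 6.61 in siINO80#2, all overlapping.

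EPZ-6438 itself was compared with DMSO to ask whether the EZH2 inhibitor alone alters the members. None of the 8 tested members passed the limma test in NTG cells, where 0.384% of all tested genes did, and none passed in siMCRS1 cells, where 0.0908% did. At an unadjusted p under 0.05 the counts were 0 in NTG (17.1% of all genes) and 1 in siMCRS1 (9.12%), and edgeR and DESeq2 on the recovered reads also called 0 members in both. Over all genes edgeR called 0.475% in NTG and 0.126% in siMCRS1 cells, and DESeq2 called 5.04% and 1.11%, with no adjusted p for IGFALS in siMCRS1 cells. In NTG cells the log2 differences were 0.19 for IGF2 (95% confidence interval -0.34 to 0.72), 0.24 for IGFBP4 (-0.22 to 0.70), -0.06 for IGFBP1 (-0.73 to 0.61) and 0.75 for IGFALS (-0.39 to 1.88), with adjusted p = 0.73, 0.59, 0.94 and 0.49 from limma. In siMCRS1 cells IGFBP1 had the largest difference of the members, 0.79 (95% confidence interval 0.12 to 1.46, unadjusted p = 0.025, adjusted p = 0.45, limma), with both EPZ-6438 libraries above the 3 DMSO libraries. The IGF2 difference there was 0.46 (95% confidence interval -0.07 to 0.99, adjusted p = 0.63, limma), also without overlap. Non-overlap was seen for 2 members in NTG and 2 in siMCRS1 cells, beside 33.4% and 25.2% of all tested genes. For the interaction of siMCRS1 and EPZ-6438 limma called 0 of 8 members and 0% of all genes. The number of members under an unadjusted p of 0.05 was 0 with limma (2.35% of all genes) and edgeR and 1 with DESeq2, and no tool called a member (0% of all genes with edgeR, 0.035% with DESeq2). These comparisons share groups with those of siMCRS1.

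The other genes of the pathway were taken from 6 lists of 52 genes, of which 43 were tested in each table. The lists were chosen with earlier results of these data known, so the shares below only describe them. Of these 43, 18 were higher and 5 lower with siINO80#1, and 18 were higher and 6 lower with siINO80#2. With siMCRS1, 18 were higher and 7 lower in DMSO, and 20 were higher and 7 lower in EPZ-6438. As shares called, these are 53.5%, 55.8%, 58.1% and 62.8%, beside 41.6%, 55%, 47.7% and 53.7% of all tested genes, and the median log2 fold change over the 43 genes was 0.22, 0.24, 0.35 and 0.34. Between the INO80 siRNAs 4 genes were higher with siINO80#2 and 5 lower, or 20.9% called. Of all tested genes 22.1% were called there, 9.48% higher and 12.6% lower. For EPZ-6438 none of the 43 passed the limma test in NTG or siMCRS1 cells, beside 0.384% and 0.0908% of all tested genes. At an unadjusted p under 0.05 the counts were 8 and 2, beside 17.1% and 9.12% of all tested genes.

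Receptors and adaptors had a median log2 fold change of 0.81 for siINO80#1, 1.24 for siMCRS1 in DMSO and 0.89 in EPZ-6438, the highest of the 6 lists. For siINO80#2 their median was 0.34, below the 0.41 of the list of IGF2-H19 imprinting and regulation. Of 7 tested, 5 were higher and 1 lower with siINO80#1, 4 higher and 2 lower with siINO80#2, and 5 higher and 0 lower with siMCRS1 in each treatment. Over all tested genes, 20.7%, 26.6%, 23.1% and 26.8% were higher and 20.8%, 28.4%, 24.6% and 26.9% lower in these comparisons. GRB14, an adaptor that inhibits the insulin and IGF receptors, had 31.5 ± 6.70 normalized counts in NTG, 106 ± 12.1 in siINO80#1 and 169 ± 7.09 in siINO80#2 (SD, n = 3 each). Its log2 fold changes were 1.74 and 2.41 (adjusted p = 3.3e-05 and 1.9e-06, limma). GRB10, a related inhibitory adaptor, had 569 ± 36.8 in NTG and 1540 ± 84.9 in siINO80#2 (SD, n = 3 each), so its log2 fold change was 1.44 (adjusted p = 8.2e-07, limma). With siMCRS1 it rose by 1.71 in DMSO (adjusted p = 3.5e-05, limma) and by 1.90 in EPZ-6438 (adjusted p = 1.2e-05, limma). IRS2, a docking protein of both receptors, went from 14.3 ± 4.02 in DMSO NTG (SD, n = 2) to 56.6 ± 14.7 in DMSO siMCRS1 (SD, n = 3), and its log2 fold change was 1.90 (adjusted p = 0.0015, limma).

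**Figure D5:**
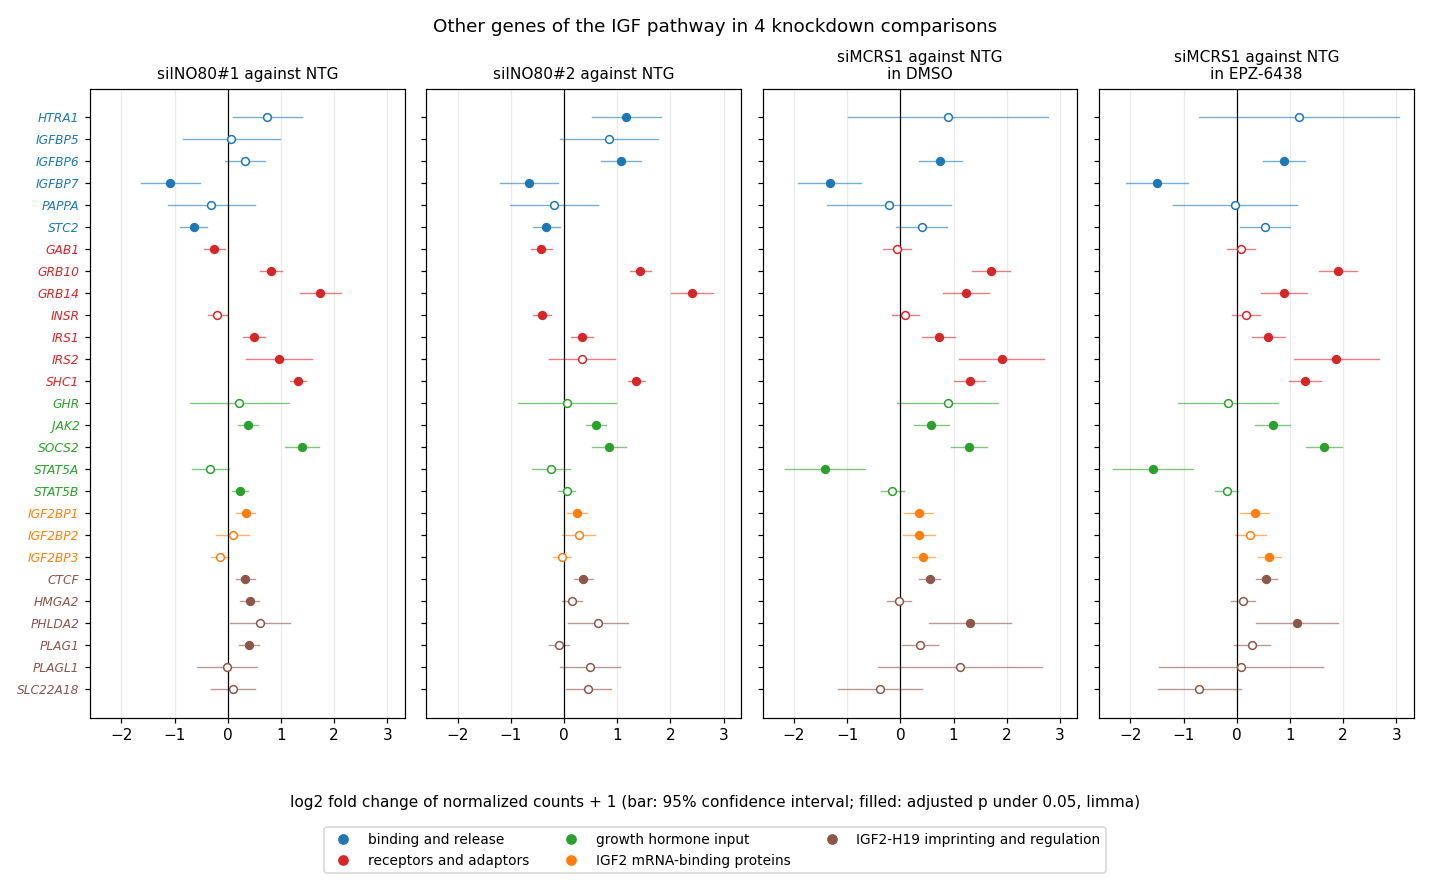
Log2 fold changes of other genes of the IGF pathway in 4 knockdown comparisons, colored by list (5 lists, without that of PI3K, AKT, mTOR and FOXO), with 95% confidence intervals as bars and filled points at an adjusted p under 0.05 (limma). Among receptors and adaptors GRB10, GRB14, IRS1 and SHC1 lie right of 0 with filled points in all 4 panels, and IGFBP7 lies left of 0 in all 4.

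Among genes of binding and release, IGFBP7, a low-affinity relative of the IGFBPs, was called lower in the 4 knockdown comparisons, though not firmly with siINO80#2. It went from 62.6 ± 17.9 normalized counts in NTG to 28.7 ± 5.98 in siINO80#1 and 38.3 ± 3.35 in siINO80#2 (SD, n = 3 each), with log2 fold changes of -1.08 (adjusted p = 0.0056, limma) and -0.66 (adjusted p = 0.044, limma). The siINO80#2 call was lost without siINO80#1 library A (adjusted p = 0.057, limma), NTG library B (-0.47, adjusted p = 0.17, limma) or C (-0.61, adjusted p = 0.12, limma), or siINO80#2 library A (-0.61, adjusted p = 0.11, limma), B (-0.73, adjusted p = 0.053, limma) or C (-0.63, adjusted p = 0.085, limma). No filter beyond a mean above 0 (adjusted p = 0.087, limma) and only the groups compared (adjusted p = 0.053, limma) also ended it. So did leaving out the B libraries of every group (-0.54, adjusted p = 0.17, limma). With siMCRS1 the values were -1.33 in DMSO (adjusted p = 0.0020, limma) and -1.49 in EPZ-6438 (adjusted p = 0.00079, limma). STC2, a stanniocalcin that inhibits PAPPA, fell by 0.64 on the log2 scale with siINO80#1 (adjusted p = 0.0013, limma) and by 0.33 with siINO80#2 (adjusted p = 0.030, limma). The siINO80#2 call of STC2 was lost without NTG library A (-0.25, adjusted p = 0.12, limma) or C (-0.32, adjusted p = 0.075, limma) or siINO80#2 library C (-0.24, adjusted p = 0.089, limma). It was also lost with eBayes without a trend (-0.33, adjusted p = 0.058, limma). With siMCRS1 the log2 difference of STC2 was positive and did not pass, at 0.40 in DMSO (adjusted p = 0.15, limma) and 0.53 in EPZ-6438 (adjusted p = 0.056, limma). The EPZ-6438 value passed without EPZ-6438 NTG library 2 (0.73, adjusted p = 0.010, limma) and with DESeq2 (0.53, adjusted p = 0.032). It was 0.84 without EPZ-6438 siMCRS1 library A. The DMSO value passed with only the groups compared (0.40, adjusted p = 0.024, limma). PAPPA itself had 19.5 ± 9.88 normalized counts in NTG (SD, n = 3) and passed no test. IGFBP6, which prefers IGF2, was 0.75 higher with siINO80#2 than with siINO80#1 on the log2 scale (adjusted p = 0.010, limma). It had 211 ± 26.7 normalized counts in NTG, 266 ± 40.2 in siINO80#1 and 452 ± 98.2 in siINO80#2 (SD, n = 3 each). With siMCRS1 its mean was 411 against 241 with NTG in DMSO, and 517 against 282 in EPZ-6438.

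Of the growth hormone input, SOCS2, a feedback inhibitor of growth hormone signalling, rose in all 4 knockdown comparisons. With siINO80#1 it went from 127 ± 20.3 to 333 ± 39.2 normalized counts (SD, n = 3 each; log2 fold change 1.39, adjusted p = 3.7e-05, limma). The log2 fold change of SOCS2 was 0.84 with siINO80#2 (adjusted p = 0.00055, limma), 1.29 for siMCRS1 in DMSO (adjusted p = 0.00011, limma) and 1.64 in EPZ-6438 (adjusted p = 1.7e-05, limma). It was lower with siINO80#2 than with siINO80#1 (log2 difference -0.55, adjusted p = 0.021, limma). The latter call was lost without siINO80#2 library A (-0.46, adjusted p = 0.075, limma), siINO80#1 library B (-0.47, adjusted p = 0.083, limma) or C (-0.55, adjusted p = 0.061, limma). STAT5A, a transcription factor of that pathway, fell by 1.42 on the log2 scale with siMCRS1 in DMSO (adjusted p = 0.0058, limma) and fell by 1.57 in EPZ-6438 (adjusted p = 0.0026, limma). Without DMSO NTG library 1 the DMSO value was -1.22 (adjusted p = 0.061, limma). Of the 3 IGF2 mRNA-binding proteins, 1 was higher with each INO80 siRNA, 3 in DMSO siMCRS1 and 2 in EPZ-6438 siMCRS1. Of 6 tested genes of IGF2-H19 imprinting and regulation, 3, 1, 2 and 2 were higher in the 4 comparisons and 0 were lower. For both lists the background is the 20.7%, 26.6%, 23.1% and 26.8% of all tested genes that were higher. PLAG1, a transcription factor known to act on IGF2 promoters, was lower with siINO80#2 than with siINO80#1 (log2 difference -0.50, adjusted p = 0.0024, limma).

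The genes whose level followed a member most closely over the libraries were found by Pearson's r of log2 values, taken as the smaller of r over the 9 libraries of the first table and the 10 of the second. For IGFBP4 these were TAGLN2 (smaller r 0.98), MICAL2 (0.98) and CDR2L (0.98), and for IGF2R they were REST (0.96), PTPN14 (0.95) and IRGQ (0.95). IGF1R was followed most closely by ANKRD11 (0.93), GNAQ (0.92) and ZBTB38 (0.88), and IGF2 by NLGN4Y (0.91), PIAS2 (0.91) and GNAS (0.90). For IGFBP1 they were TNS1 (0.87), ADM (0.85) and ATF3 (0.84). IGFBP3 had ETFB (0.79), DDIT4 (0.79) and ISM2 (0.77), while the closest gene for IGFBP2, ZNF99, reached only 0.61. The libraries share groups and scaling, so these values describe likeness and were not tested.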

How the data were processed

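For each experiment the authors deposited a table of a signal, reads per gene symbol divided by a size factor for the library. The submitters' processing notes name kallisto, DESeq2 and GRCh38. Versions, annotation and strand setting are not given in the sources used here. Division by the smallest step of a library gave whole reads for 100% of values (tolerance 0.01). Groups follow the sample labels, and the numbers of drug libraries are names only.

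limma 3.58.1 (R 4.3.3, eBayes with trend) was run on log2(value + 1) for genes averaging 10 or more, all groups of a table together, with Benjamini-Hochberg adjustment. Alternatives were pseudocounts of 0.1 and 5, no filter or a mean of 50, rescaling to the same total, quantile normalization, edgeR 4.0.16 (TMM) and DESeq2 1.42.0 on recovered reads, only the groups compared, eBayes without a trend, the replicate letter as a block, and each library left out. Scripts were tested on simulated counts. Lengths came from the longest protein-coding transcript in GENCODE (v44lift37). Members and gene lists were chosen with earlier results of these data known. Named were all members, the targeted genes, per comparison and direction the 2 called pathway genes with the largest change, and the 3 genes most like each member. Some pathway genes under this rule are not reported here. Figures used matplotlib 3.10.9 in Python 3.11.15.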

Additional observations from a re-analysis of the deposited data

How the results depend on the processing

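For 3 of the 5 comparisons between siRNAs and for the EPZ-6438 comparisons, the number of members called stayed within 1.5 times under all alternatives. Between the 2 INO80 siRNAs the count was 1, and it was 0 without a filter beyond a mean above 0, after rescaling to the same total, with only the groups compared and without a trend. It was 2 with quantile normalization, with DESeq2 and with the replicate block, 3 without the B libraries, and 0 to 2 on leaving out 1 library. For siMCRS1 in DMSO the count was 6, and 3 with quantile normalization. The letters of the INO80 experiment were not treated as pairs in the main fit. Over 9 pairs of same-lettered libraries the mean correlation of deviations was 0.10 (5 pairs over 0.1). Over 18 pairs with different letters it was -0.05 (2 pairs over 0.1), so same-lettered libraries were somewhat more alike on average. With the replicate block the calls over all genes went from 5833 to 6327 for siINO80#1, from 7725 to 8127 for siINO80#2 and from 3096 to 3590 between the siRNAs, and IGFBP3 with siINO80#2 was not called (-2.12, adjusted p = 0.069, limma). No paired fit was run for the drug experiment: its columns carry numbers in 3 groups and letters in the fourth, while the labels carry letters only, so numbered columns were not matched to labelled replicates.

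Some differences that did not pass the test changed sign, and the cause was not tested. After rescaling to the same total, the log2 difference was -0.012 for IGFBP1 with siINO80#1, -0.019 for IGF1R with siINO80#2 and -0.061 for IGFBP2 with siMCRS1 in EPZ-6438. IGFBP1 with siINO80#1 was -0.28 with edgeR and -0.28 with DESeq2. Without the B libraries it was -0.60 and passed the test, while IGFBP2 with siINO80#1 was -0.12 and IGF2 between the siRNAs was -0.16. Quantile normalization gave -0.068 for IGF2, -0.011 for IGF2R and -0.034 for IGFBP2 between the siRNAs and 0.21 for IGFBP2 with siMCRS1 in DMSO. For EPZ-6438 in NTG cells it gave 0.025 for IGFBP1, -0.091 for IGFBP2 and -0.093 for IGFBP3.

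Leaving out 1 library gave these ranges. With siINO80#1 they were -0.22 to 0.12 for IGF1, -0.79 to 0.53 for IGFBP1 and -0.00016 to 0.33 for IGFBP2, and with siINO80#2 -0.011 to 0.43 for IGF1. Between the siRNAs they were -0.13 to 0.46 for IGF2, -0.010 to 0.084 for IGF2R and -0.16 to 0.16 for IGFBP2. IGFBP2 ranged from -0.48 to 0.44 with siMCRS1 in DMSO and from -0.14 to 0.48 in EPZ-6438. For EPZ-6438 in NTG cells they were -0.20 to 0.59 for IGF2, -0.29 to 0.087 for IGF2R, -0.48 to 0.35 for IGFBP1, -0.27 to 0.65 for IGFBP2 and -0.11 to 0.37 for IGFBP3, and in siMCRS1 cells -0.068 to 0.18 for IGF1R. Rescaling to the same total moved the median of all genes to -0.08 and -0.11 for siINO80#1 and siINO80#2 and the share of higher calls from 49.9% to 39.8% and from 48.3% to 38.7%. IGF1, IGFALS and IGFBP3 rest on few reads per library, which limits their precision.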
